A study of Mus musculus with 4 samples.

Results

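S phase and mitosis genes are 39 genes that mark cells copying their DNA or dividing, out of 27998 genes counted in each of 4 single-cell libraries from MMTV-neu mice. The list was given gene by gene. It holds 11 S phase genes (Pcna, Mcm2 to Mcm7, Rrm1, Rrm2, Tyms and Tk1), 24 mitosis genes, the G1/S cyclins Ccne1 and Ccne2, and Hmgb2 and Stmn1, which many dividing cells express. MMTV-neu mice carry the rat form of HER2 (neu, or Erbb2) as a transgene, driven in mammary epithelium by the promoter of a mouse retrovirus. All 4 groups carry this transgene on the FvB strain. The early lesion library came from mammary glands and the early lung library from lungs of mice 14 to 18 weeks old without a palpable tumor. The primary tumor library and the late lung library came from mice over 20 weeks old that bore primary tumors. Digested tissue was sorted for cells without the leukocyte antigen CD45 and with HER2, and the sorted cells were encapsulated in droplets with a 10x Chromium kit that tags the 3′ end of each captured RNA. Each group is 1 library, the sources used here do not say whether a library pools several mice, and no wild-type library was analysed here, so every interval given covers counting error only and no difference between groups has a replicate check.

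A cell passes through a first gap phase, copies its DNA in S phase, passes through a second gap and divides in mitosis. Before and during S phase, E2F factors drive genes for the replication machinery and its nucleotides, and MCM proteins form the helicase that opens the DNA. Toward mitosis, the MuvB complex with B-Myb and FoxM1 drives genes for the spindle, the kinetochores and the anaphase-promoting complex, and this program is widely used to count dividing cells in mammary tumors.

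The promoters of the 2 lists differed in their sequence motifs, and 4 of them are shown. Ube2c, Cdk1 and Mcm6 hold the motifs that differed, and Pcna stands beside them as an S phase gene with neither a CHR nor an E2F site. Of the 250 bases before each gene's start in RefSeq (build GRCm38.p6), given 5′ to 3′ on the gene's strand, capitals mark every match to CHR (TTTGAA), the element bound by the MuvB complex, to CCAAT, the NF-Y box, or to an E2F site (TTTCCCGC, TTTGGCGC, TTTCGCGC or TTTGCCGC), on either strand. Ube2c and Pcna had the most counts of the mitosis and of the S phase list, and Cdk1 and Mcm6 were chosen after their motifs were seen.
Ube2c, chr2:164769679-164769928, plus strand: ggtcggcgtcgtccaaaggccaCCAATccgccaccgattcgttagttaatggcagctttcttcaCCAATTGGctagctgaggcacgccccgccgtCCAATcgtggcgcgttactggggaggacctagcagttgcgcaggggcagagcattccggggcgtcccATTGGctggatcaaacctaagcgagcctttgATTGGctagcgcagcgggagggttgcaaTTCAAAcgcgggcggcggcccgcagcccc
Cdk1, chr10:69352913-69353162, minus strand: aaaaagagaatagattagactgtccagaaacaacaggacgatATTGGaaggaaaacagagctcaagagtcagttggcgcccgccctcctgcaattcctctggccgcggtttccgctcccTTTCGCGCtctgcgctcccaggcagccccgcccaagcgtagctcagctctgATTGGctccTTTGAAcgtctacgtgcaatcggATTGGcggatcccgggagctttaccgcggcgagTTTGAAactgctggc
Pcna, chr2:132253181-132253430, minus strand: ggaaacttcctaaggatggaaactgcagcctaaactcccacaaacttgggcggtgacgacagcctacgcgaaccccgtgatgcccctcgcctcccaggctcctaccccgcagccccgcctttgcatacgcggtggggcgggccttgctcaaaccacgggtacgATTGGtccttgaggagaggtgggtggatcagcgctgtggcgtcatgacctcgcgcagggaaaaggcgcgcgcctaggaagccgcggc
Mcm6, chr1:128359706-128359955, minus strand: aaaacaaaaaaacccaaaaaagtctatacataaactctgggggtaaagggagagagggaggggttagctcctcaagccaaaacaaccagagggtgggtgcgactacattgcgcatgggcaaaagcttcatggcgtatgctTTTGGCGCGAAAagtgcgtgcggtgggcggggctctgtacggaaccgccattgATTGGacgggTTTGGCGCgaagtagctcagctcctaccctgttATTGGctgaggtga

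Ube2c has 6 CCAAT boxes and 1 CHR, Cdk1 has 2 CHR, 3 CCAAT boxes and 1 E2F site, Pcna has 1 CCAAT box, and Mcm6 has 3 E2F sites and 2 CCAAT boxes. In Ube2c a pair of CCAAT matches on opposite strands overlap, and in Mcm6 a pair of E2F matches overlap. Shares over genes were taken in the RefSeq window of 300 bases, 250 before and 50 after the start. CHR stood in 13 of the 19 mitosis genes with a promoter in the table (68.4%), in 1 of 10 S phase genes (Mcm2) and in 20.2% of all 27025 genes. An E2F site stood in 4 of 10 S phase genes (Mcm3, Mcm5, Mcm6 and Mcm7), in 1 of 19 mitosis genes (Cdk1) and in 704 of all genes. CCAAT was common to both lists, in 16 of 19 mitosis genes and 8 of 10 S phase genes against 41.1% of all genes. All 13 mitosis genes with CHR also held CCAAT, a combination found in 7.97% of all genes. These matches describe the letters in the window and show no binding.

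Cells were barcodes with at least 500 unique molecular identifiers (UMIs, each a tag on 1 captured RNA molecule), at least 250 genes and at most 20% mitochondrial UMIs. This left 1318 early lesion, 434 primary tumor, 185 early lung and 210 late lung cells, with medians of 2360, 1657.5, 772 and 811 UMIs, and no 2 libraries shared a cell barcode. In the primary tumor 18 cells of over 10000 UMIs held 54.5% of the UMIs of all cells, against 6.50% in 21 such early lesion cells, so the summed results are also given without cells of that depth. Both lung libraries went against their label as breast cancer cells. Their airway secretory markers (Scgb1a1, Scgb3a2 and Cyp2f2, all 3 detected) summed to 114098 CPM (a gene's UMIs per 1000000 UMIs of all cells) in early lung and 84416 CPM in late lung. The 6 milk-secreting markers summed to 88.4 and 209 CPM there, against 85675 CPM in the early lesion and 25663 CPM in the primary tumor, and Wap was at 0 in both lungs. The mammary luminal markers Epcam, Krt8, Krt18, Cldn3, Cldn4 and Cldn7 summed to 599 and 515 CPM in the lungs and to 3845 and 3887 CPM at the primary sites. What the lung libraries show of the 39 genes therefore describes sorted lung cells of mixed type, and the part of tumor cells among them was not tested.

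To compare cells at one depth, each cell of at least 1000 UMIs was thinned to 1000 UMIs drawn at random, which left out 277 early lesion, 122 primary tumor, 130 early lung and 131 late lung cells. A cell was counted for a list with at least 2 of its UMIs. In the early lesion 304 of 1041 cells passed for mitosis, 29.2% (exact Clopper-Pearson 95% interval 26.5 to 32.1%). In the primary tumor 50 of 312 cells passed, 16.0% (12.1 to 20.6%), and these intervals do not overlap. S phase UMIs passed in 126 early lesion cells, 12.1% (10.2 to 14.2%), and in 28 primary tumor cells, 8.97% (6.05 to 12.7%), where the intervals overlap. In early lung 0 of 55 cells passed for either list, which allows a share of up to 5.45% by a floor of 3 counts, with an exact interval up to 6.49%. Late lung had 1 S phase cell of 79, 1.27% (0.0320 to 6.85%), and 2 mitosis cells, 2.53% (0.308 to 8.85%). The thinned cells had median depths of 2944, 2297.5, 1412 and 1511 UMIs before thinning, in the order early lesion, primary tumor, early lung, late lung. Without thinning, the mitosis shares were 39.4%, 18.9%, 0% and 3.33% and the S phase shares 28.5%, 18.2%, 1.08% and 5.24% in the same order. No cycling is read from these classes alone, since a class is a range of counts and free RNA in the droplets adds to it.

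Free RNA, read from barcodes of 1 to 50 UMIs, held 1599 CPM of mitosis and 569 CPM of S phase UMIs in the early lesion, beside 1881 and 568 CPM in its cells. For the primary tumor it held 939 and 432 CPM, beside 1078 and 460 CPM in cells. Droplets filled with free RNA alone would thus carry 1.60 mitosis UMIs per 1000 in the early lesion, and 0.939 for the primary tumor, and its part in the shares was not tested. S phase UMIs were few per cell and close to the cut. Of early lesion cells 212 held exactly 1 and 66 exactly 2, and of primary tumor cells 37 and 11, with a maximum of 7 in both. Mitosis UMIs spread over a wider range. In the early lesion 592 cells held 0, 145 held 1, 63 held 2, 28 held 3, 167 held 4 to 9 and 46 held 10 or more. In the primary tumor 238 held 0, 24 held 1, 7 held 2, 5 held 3, 19 held 4 to 9 and 19 held 10 or more.

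**Figure D1:**
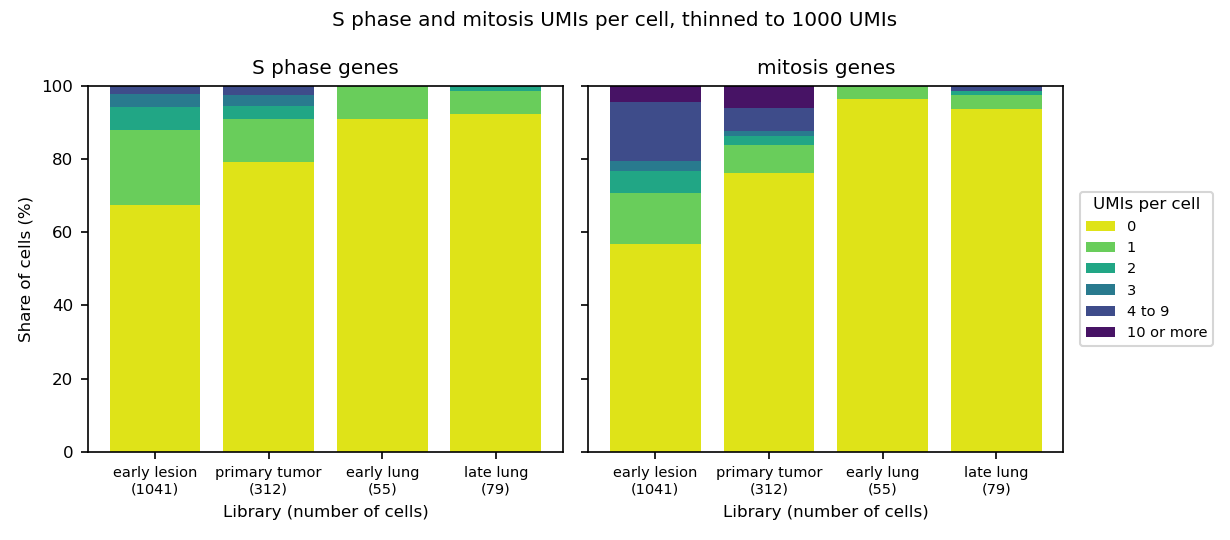
Stacked bars give the share of cells (%) with 0, 1, 2, 3, 4 to 9, and 10 or more S phase (left) or mitosis (right) UMIs in each library, after thinning every cell to 1000 UMIs. The primary tumor has more cells at 0 mitosis UMIs (76.3%) than the early lesion (56.9%) and fewer at 4 to 9, while both lungs are nearly all at 0.

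The primary tumor thus had fewer cells with mitosis UMIs, but those cells held more of them. At 4 or more UMIs the mitosis share was 20.5% (18.0 to 23.0%) in the early lesion and 12.2% (8.76 to 16.3%) in the primary tumor. At 10 or more it was 4.42% (3.25 to 5.85%) and 6.09% (3.71 to 9.35%), where the intervals overlap. Cells past the cut held a median of 5 and a mean of 5.80 mitosis UMIs in the early lesion, and a median of 6.5 and a mean of 8.90 in the primary tumor, where the fullest cell held 37 against 17. The mean over all thinned cells was 1.83 mitosis UMIs in the early lesion, against 1.50 in the primary tumor.

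The mitosis share was also lower in the primary tumor among cells that had been alike in depth. Among cells of 1000 to 1999 UMIs, mitosis passed in 80 of 303 early lesion cells (26.4%, 21.5 to 31.7%) and 18 of 134 primary tumor cells (13.4%, 8.16 to 20.4%). Among cells of 2000 to 4999 UMIs it passed in 28.8% (24.9 to 32.9%) and 17.9% (12.1 to 25.2%), where the intervals overlap slightly. Above that the primary tumor had 15 and 18 cells in a class, and the intervals overlap too. The S phase shares at 2000 to 4999 UMIs were 11.9% and 11.7%. At 1000 to 1999 UMIs they were 10.2% (7.06 to 14.2%) and 6.72% (3.12 to 12.4%), where the intervals overlap.

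**Figure D2:**
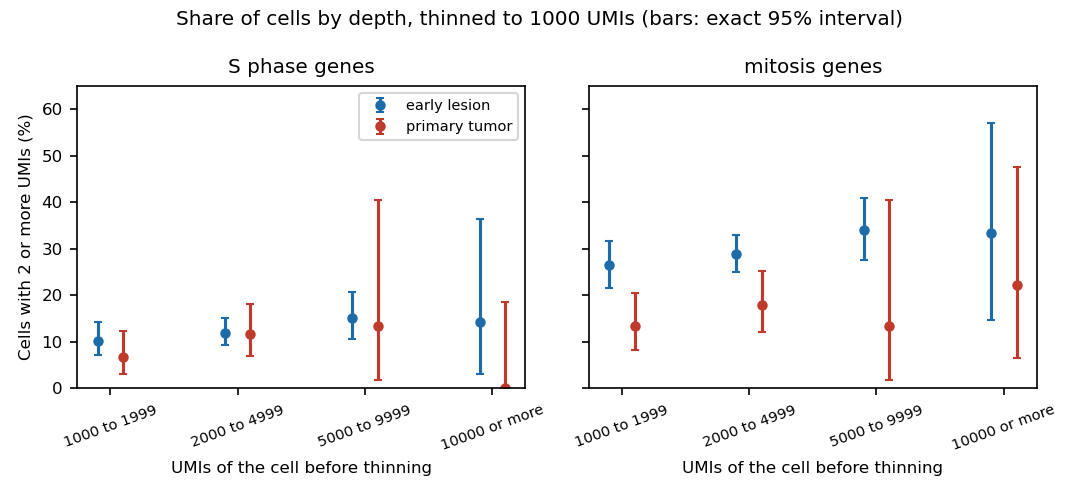
Points give the share of cells (%) with at least 2 S phase (left) or mitosis (right) UMIs after thinning, by the UMIs of the cell before thinning, in the early lesion and the primary tumor, and bars are exact 95% intervals. The mitosis share is lower in the primary tumor in every depth class, with intervals apart only from 1000 to 1999 UMIs.

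Cells were also split by both lists. In the early lesion 59 cells passed for S phase only, 237 for mitosis only, 67 for both and 678 for neither, and in the primary tumor 15, 37, 13 and 247. Among cells that passed for either list, S phase only made up 16.3% (12.6 to 20.5%) in the early lesion and 23.1% (13.5 to 35.2%) in the primary tumor, and these intervals overlap. Markers of other cell types were counted in the cells that passed for either list. The 363 such early lesion cells held 91 UMIs of the basal and myoepithelial list, 20 endothelial, 18 fibroblast, 12 airway, 2 leukocyte and 0 erythroid. They also held 8 hormone-sensing luminal, 7 alveolar type 2, 5 Schwann, and 3 pericyte and smooth muscle UMIs. All 18 fibroblast UMIs lay in the 59 S-phase-only cells, at 305 CPM (181 to 482). Cells that passed for neither list held 177 CPM (147 to 212), and these intervals overlap. The 65 primary tumor cells held 6 endothelial UMIs, 2 alveolar type 2, 1 of the basal and myoepithelial list, and 0 fibroblast, airway, leukocyte and erythroid. Their median depths, 3219 and 2621 UMIs, lay above the 2865 and 2164 UMIs of cells that passed for neither.

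The phase balance, the S phase share of all S phase plus mitosis UMIs, was higher in the primary tumor over all cells, but not with its deepest cells left out. Over all cells it was 23.2% (2232 S phase and 7385 mitosis UMIs, 22.4 to 24.1%) in the early lesion and 29.9% (840 and 1968 UMIs, 28.2 to 31.6%) in the primary tumor. Without cells of over 10000 UMIs it was 23.7% (22.8 to 24.6%) and 24.6% (22.6 to 26.8%). In cells of 1000 to 5000 UMIs it was 23.3% and 22.3%, and after thinning 22.8% and 21.7%, with overlapping intervals each time. A mean over cells with a UMI of either list, each cell counted alike, was 38.5% over 925 early lesion cells and 48.4% over 191 primary tumor cells, shallow cells included. The 18 deep primary tumor cells alone had a balance of 37.1% (34.4 to 40.0%), while the 21 deep early lesion cells had 17.8% (15.3 to 20.6%). Those 18 cells held 52.4% of the S phase and 37.9% of the mitosis UMIs of the primary tumor. A single cell of 43783 UMIs gave 158 of its 840 S phase UMIs, and another of 104762 UMIs gave 296 of its 1968 mitosis UMIs. The deep tumor cells held 442 CPM of S phase and 748 CPM of mitosis UMIs, and the other tumor cells 482 and 1473 CPM. Whether a deep barcode is 1 cell or several was not tested.

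**Figure D3:**
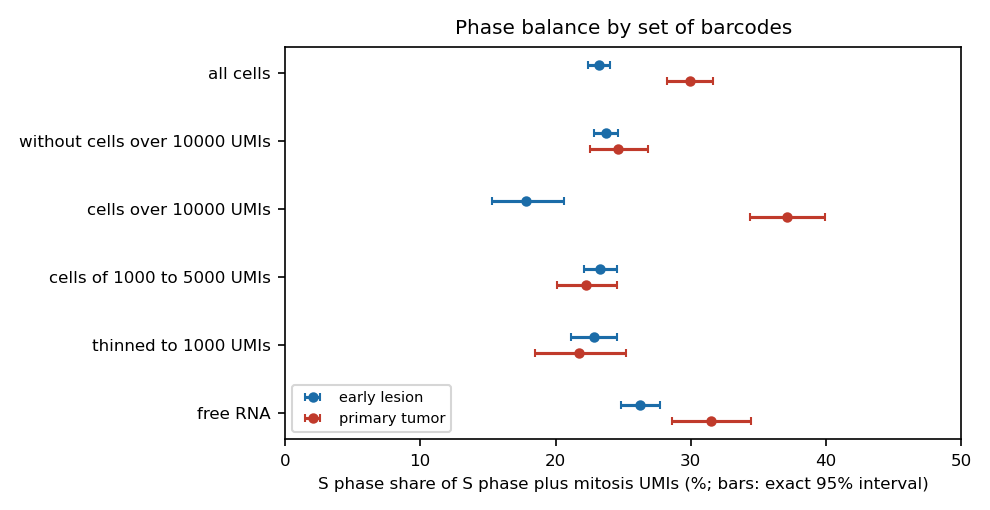
The S phase share of S phase plus mitosis UMIs (%) is shown for the early lesion and the primary tumor in 6 sets of barcodes, with exact 95% intervals as bars. The libraries lie apart over all cells (23.2 and 29.9%), in cells over 10000 UMIs (17.8 and 37.1%), and in free RNA (26.3 and 31.5%), and overlap without the deep cells, at 1000 to 5000 UMIs and after thinning.

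Free RNA had a balance of 26.3% (24.8 to 27.7%) in the early lesion and 31.5% (28.6 to 34.4%) for the primary tumor, and these intervals lie apart. Early lung had 17 S phase and 6 mitosis UMIs in all (73.9%, 51.6 to 89.8%) and late lung 56 and 40 (58.3%, 47.8 to 68.3%). Pcna gave 9 of the 17 and 29 of the 56 S phase UMIs of the lungs, so their balance rests largely on 1 gene.

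Summed over cells, mitosis genes were lower in the primary tumor than in the early lesion by more than S phase genes were. The mitosis sum was 1881 CPM in the early lesion and 1078 CPM in the primary tumor, a log2 ratio of -0.80 (95% counting interval -0.88 to -0.73). The S phase sum was 568 and 460 CPM, a log2 ratio of -0.30 (-0.42 to -0.19). Without cells of over 10000 UMIs these became -0.31 (-0.40 to -0.22) and -0.23 (-0.39 to -0.08). In cells of 1000 to 5000 UMIs, a range chosen after seeing the data, they were -0.09 (-0.19 to 0.01) and -0.17 (-0.36 to 0.01), and both intervals include 0. The median gene of all 9811 tested had a log2 ratio of 0.33, or 0.22 when the 10 genes with the most counts were left out of the totals.

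A gene was called higher or lower where its CPM differed at least 2-fold and the counting interval of the ratio excluded 1, over genes with at least 20 counts in both libraries together. By this rule 13 of the 39 members were lower in the primary tumor, beside 6.68% of all genes, and 2 were higher (Pbk and Ccne2), beside 24.5% of all genes. Of the mitosis genes 11 of 24 were lower and 1 higher, with a median log2 ratio of -0.94. Of the S phase genes 1 of 11 was lower and 0 higher, with a median of -0.67. Without cells of over 10000 UMIs, 6 members were lower (Mcm3, Mcm5, Top2a, Ccnb1, Cenpe and Hmgb2), beside 9.35% of all genes, and 2 were higher (Tk1 and Pbk), beside 13.3% of all genes. Only Ccnb1 and Hmgb2 were lower, and only Pbk higher, in both sets of cells. In cells of 1000 to 5000 UMIs 2 of 38 measured members were lower (Mcm3 and Mcm5), beside 9.11% of all genes, and 3 were higher (Tk1, Cenpf and Pbk), beside 13.6%, so neither Ccnb1 nor Hmgb2 was called there.

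**Figure D4:**
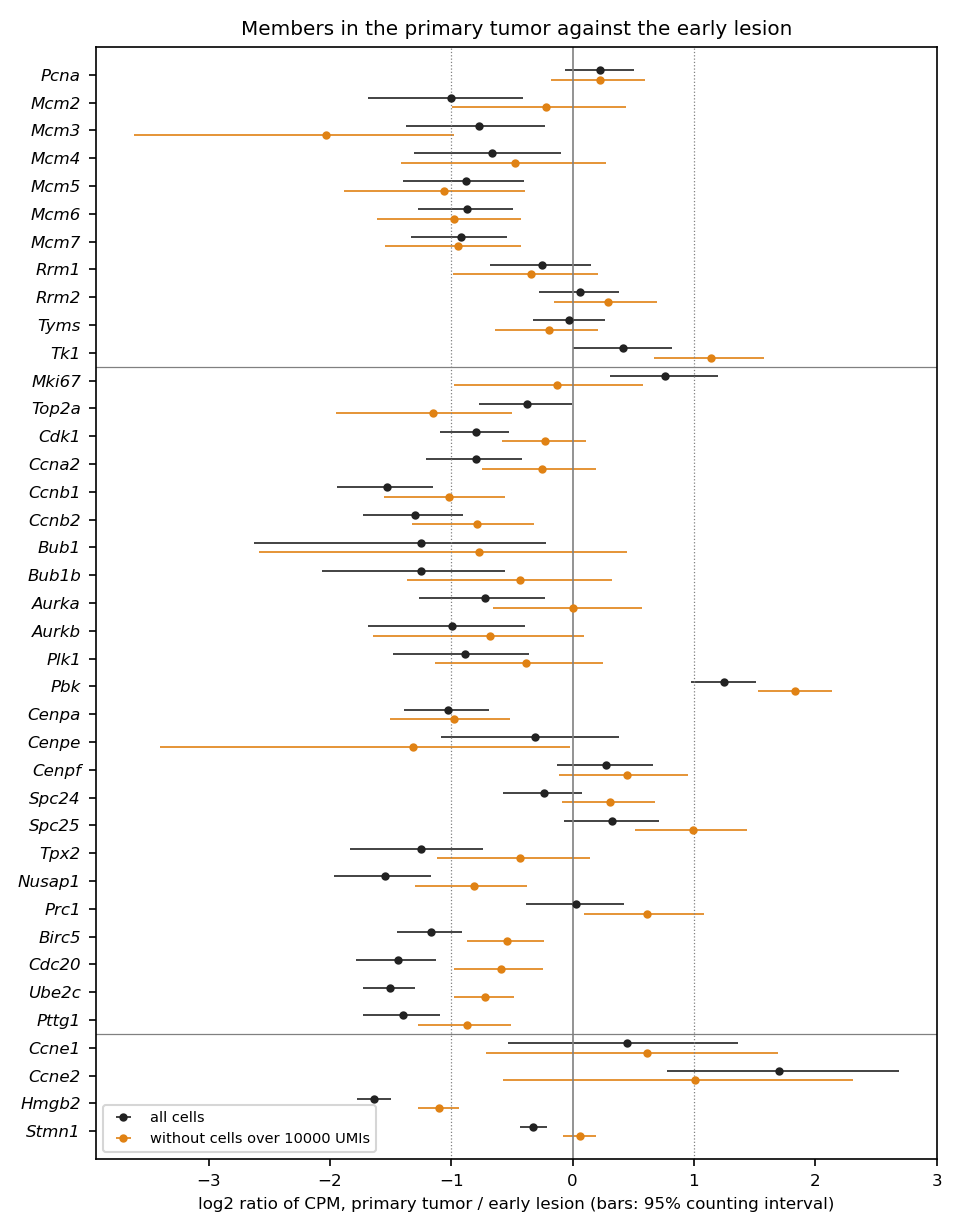
Each member's log2 ratio of CPM, primary tumor over early lesion, is plotted for all cells and without cells of over 10000 UMIs, with 95% counting intervals as bars and dotted lines at a 2-fold change. The S phase genes are above the upper line, the mitosis genes below it, and the last 4 are Ccne1, Ccne2, Hmgb2 and Stmn1. Pbk stands to the right in both sets, while Mki67 and Top2a move left when the deep cells are left out.

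Among the S phase genes, the 6 MCM helicase subunits all had ratios below 0, while the 4 nucleotide enzymes lay on both sides of 0. Together the MCM genes held 1084 UMIs in the early lesion (276 CPM) and 275 in the primary tumor (151 CPM), a log2 ratio of -0.87 (-1.07 to -0.68), and -0.93 (-1.22 to -0.66) without the deep cells. The ratio of Mcm2 was the lowest of the 6 over all cells, from 118 UMIs (30.1 CPM) to 27 UMIs (14.8 CPM), and that of Mcm4 was the highest at -0.67 (107 and 31 UMIs). Mcm6 (chr1:128331590-128359664, minus strand) had 276 and 70 UMIs, a log2 ratio of -0.87, and Mcm7 had 282 and 69 UMIs, a log2 ratio of -0.92. Mcm5 had 175 and 44 UMIs, a log2 ratio of -0.87. Mcm3 had 126 and 34 UMIs, a log2 ratio of -0.77, but 28 of the 34 sat in the deep tumor cells and the ratio without them was -2.03 (-3.62 to -0.97). All 6 MCM ratios were below 0 with and without the deep cells, although the interval of Mcm2 and Mcm4 then included 0.

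The nucleotide supply genes, which make or salvage the DNA building blocks, summed to 218 CPM in the early lesion and 223 CPM in the primary tumor, a log2 ratio of 0.03 (-0.14 to 0.20), and 0.21 (-0.02 to 0.43) without the deep cells. Rrm1 and Rrm2, the subunits of ribonucleotide reductase, had log2 ratios of -0.25 (180 and 70 UMIs) and 0.06 (238 and 115 UMIs). Tyms, the thymidylate synthase, had 305 and 139 UMIs and a log2 ratio of -0.03 (-0.33 to 0.26). Tk1, the thymidine kinase of the salvage pathway, had 134 and 83 UMIs, with a log2 ratio of 0.42 (0.00 to 0.82) over all cells and 1.14 (0.67 to 1.58) without the deep cells. Pcna (chr2:132249162-132253314, minus strand), the clamp that holds DNA polymerase on its template, had 291 and 158 UMIs and a log2 ratio of 0.23 (-0.07 to 0.51). Pcna is uncertain because a near-identical copy, Pcna-ps2, was counted too, with 41, 26, 3 and 12 UMIs in the early lesion, primary tumor, early lung and late lung.

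Of the mitosis genes, those of the anaphase-promoting complex and its substrates had the lowest ratio of sums over all cells, though not without the deep cells, where Mki67 and Top2a together were at -0.76. Cdc20, Ube2c and Pttg1 together held 608 CPM in the early lesion and 220 CPM in the primary tumor, a log2 ratio of -1.47 (-1.62 to -1.32), and -0.73 (-0.91 to -0.56) without the deep cells. Ube2c (chr2:164769898-164778822, plus strand), the ubiquitin-conjugating enzyme of the complex, had 1278 UMIs in the early lesion, 209 in the primary tumor, 0 in early lung and 9 in late lung. Its log2 ratio of tumor to lesion was -1.50 (-1.73 to -1.30) over all cells and -0.72 (-0.98 to -0.49) without the deep cells. Cdc20, the activator of the complex, had 539, 92, 0 and 1 UMIs in the same order and a tumor to lesion log2 ratio of -1.44. Pttg1, the securin that the complex destroys at anaphase, had 569, 100, 0 and 10 UMIs and a log2 ratio of -1.40.

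Cdk1, the kinase that triggers mitosis, and its cyclins summed to 375 CPM in the early lesion and 178 CPM in the primary tumor, a log2 ratio of -1.07 (-1.25 to -0.90), and -0.53 (-0.75 to -0.33) without the deep cells. Cdk1 (chr10:69335146-69352938, minus strand) had 491 UMIs in the early lesion, 131 in the primary tumor and 0 in both lungs, with a tumor to lesion log2 ratio of -0.80. Its partner Ccnb1 (cyclin B1) had 393 and 63 UMIs and a log2 ratio of -1.53 (-1.94 to -1.15), and -1.02 (-1.55 to -0.56) without the deep cells. Ccnb2 (cyclin B2) had 324 and 61 UMIs and a log2 ratio of -1.29. The ratio of Ccna2 (cyclin A2), which acts from S phase on, was -0.80, from 263 and 70 UMIs. Over all cells the interval of Ccnb1 did not overlap that of Cdk1 (-1.09 to -0.52) but overlapped that of Ccna2 (-1.21 to -0.42), and the interval of Ccnb2 (-1.72 to -0.91) overlapped both.

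The spindle and midzone genes summed to 359 and 171 CPM, a log2 ratio of -1.07 (-1.25 to -0.89), and -0.42 (-0.63 to -0.21) without the deep cells. Birc5, the survivin subunit of the chromosomal passenger complex, had 674 and 139 UMIs and a log2 ratio of -1.17. Nusap1, which bundles spindle microtubules, had 392 and 62 UMIs and a log2 ratio of -1.55, the lowest of the mitosis list over all cells, and -0.81 without the deep cells. Tpx2, which activates Aurora A on the spindle, had 181 and 35 UMIs and a log2 ratio of -1.25. Prc1, the microtubule crosslinker of the midzone, differed from these with 163 and 77 UMIs and a log2 ratio of 0.03 (-0.39 to 0.42).

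Centromere and kinetochore genes were mixed and summed to 261 and 216 CPM, a log2 ratio of -0.27 (-0.44 to -0.10), and 0.05 (-0.17 to 0.26) without the deep cells. Cenpa, the histone variant that marks the centromere, had 373 and 85 UMIs and a log2 ratio of -1.02 (-1.39 to -0.69). Spc24 and Spc25, paired subunits of the NDC80 complex, had log2 ratios of -0.24 (285 and 112 UMIs) and 0.33 (153 and 89 UMIs), and Spc25 reached 0.99 (0.52 to 1.44) without the deep cells. Cenpf, a large kinetochore protein, had 153 and 86 UMIs and a log2 ratio of 0.28. Cenpe, a kinetochore motor, had 62 and 23 UMIs and a log2 ratio of -0.31, with 19 of the 23 in the deep tumor cells. The sum over this group therefore hides members on both sides of 0.

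Pbk (chr14:65805837-65817822, plus strand), a kinase active in mitosis, was the only mitosis gene called higher over all cells, while 4 others (Mki67, Spc25, Cenpf and Prc1) also had ratios above 0 and 19 had ratios below 0. It had 224 UMIs in the early lesion (57.0 CPM), 247 in the primary tumor (135 CPM), and 1 in each lung. The tumor to lesion log2 ratio was 1.25 (0.98 to 1.51), and 1.83 (1.53 to 2.13) without the deep cells. It was found in 11.9% of thinned primary tumor cells and in 4.61% of thinned early lesion cells. Pbk made up 12.6% (11.1 to 14.1%) of the mitosis UMIs of the primary tumor and 3.03% (2.65 to 3.45%) of those of the early lesion, while Ube2c made up 10.6% (9.29 to 12.1%) and 17.3% (16.4 to 18.2%). Free RNA gave Pbk 132 CPM in the primary tumor and 66.6 CPM in the early lesion. The 6 mitotic and checkpoint kinases, Pbk included, summed to 196 CPM in the early lesion and 206 CPM in the primary tumor, a log2 ratio of 0.08 (-0.11 to 0.25), and 0.66 (0.45 to 0.87) without the deep cells. The higher sum without the deep cells rested on Pbk, at 55.8 CPM in the early lesion and 199 CPM in the primary tumor. Each of the other kinases then had a CPM no higher than in the early lesion. Among the other kinases, the checkpoint genes Bub1 (43 and 8 UMIs) and Bub1b (99 and 19 UMIs) both had log2 ratios of -1.25. Aurka (Aurora A) had 150 and 42 UMIs and a log2 ratio of -0.72, and Aurkb (Aurora B) had 113 and 26 UMIs and a log2 ratio of -0.99. Plk1, the polo-like kinase, had 141 and 35 UMIs and a log2 ratio of -0.89. Only Pbk of these 6 kinases had a ratio above 0 over all cells.

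The familiar proliferation markers depended on a few deep tumor cells. Mki67, which codes the Ki-67 antigen, had 98 UMIs in the early lesion, 77 in the primary tumor and 0 in both lungs, a tumor to lesion log2 ratio of 0.76 (0.31 to 1.20). Of the 77 tumor UMIs 59 lay in the cells of over 10000 UMIs, and without those cells the ratio was -0.13 (-0.98 to 0.58). Top2a, the topoisomerase that untangles chromosomes, had 224 and 80 UMIs and a log2 ratio of -0.37, with 61 of the 80 in the deep cells, and -1.15 (-1.95 to -0.50) without them. The higher Mki67 level of the primary tumor thus rested on the deep cells, and the interval without them includes 0.

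Hmgb2, a chromatin protein of dividing cells, had 3281 UMIs in the early lesion (836 CPM), 491 in the primary tumor (269 CPM), 12 in early lung and 42 in late lung. Its tumor to lesion log2 ratio was -1.63 (-1.78 to -1.50), and -1.10 (-1.27 to -0.93) without the deep cells. Stmn1, which destabilises microtubules and is also expressed outside the cell cycle, had 2520 and 937 UMIs at the primary sites and 68 and 226 in the lungs. Its tumor to lesion log2 ratio was -0.32 over all cells and 0.06 (-0.08 to 0.19) without the deep cells, where the interval includes 0. The G1/S cyclins were sparse. Ccne1 had 27 and 17 UMIs, and Ccne2 had 17 and 26 UMIs with a log2 ratio of 1.70 (0.78 to 2.69), of which 19 of the 26 lay in the deep tumor cells.

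**Figure D5:**
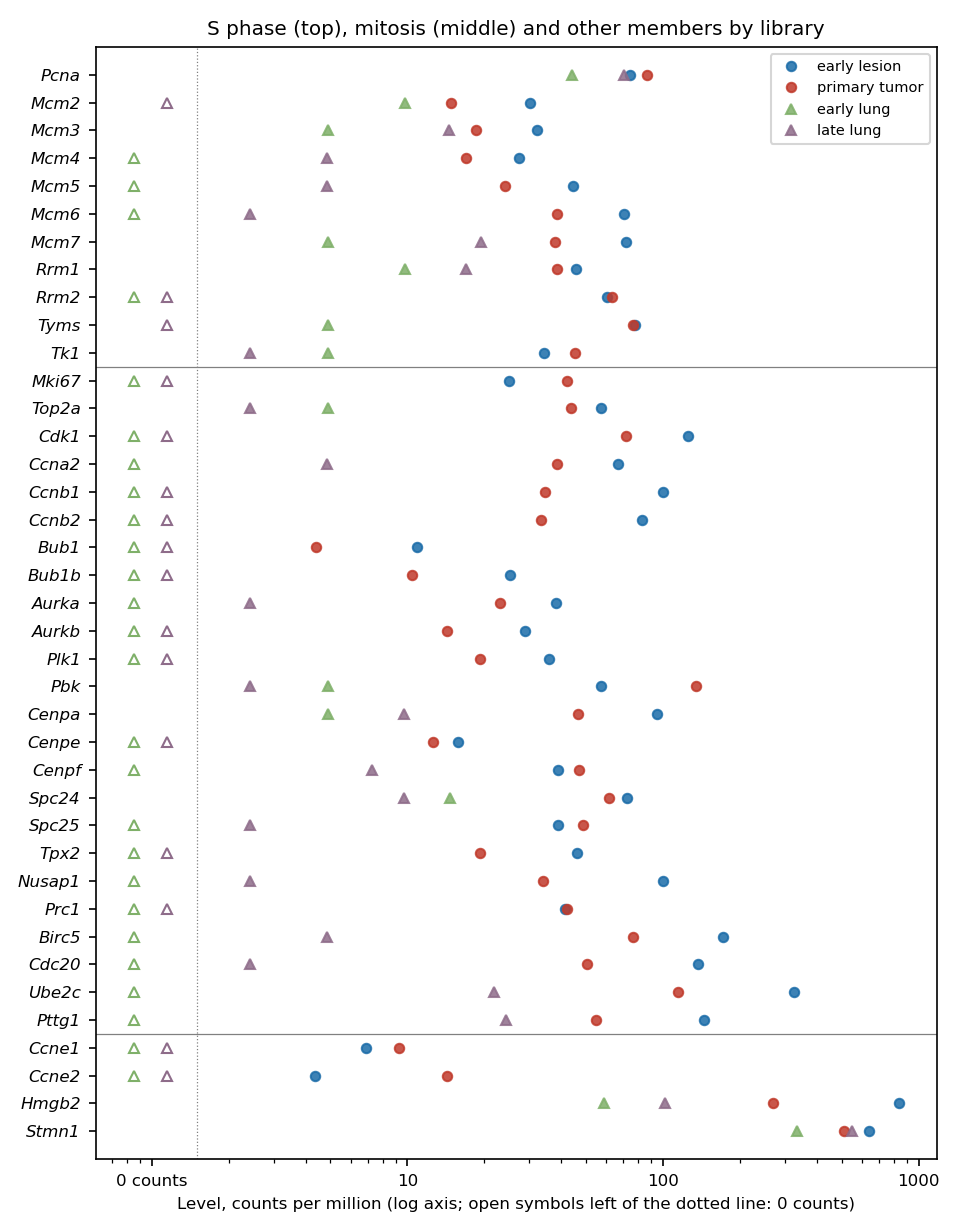
Each row is a member and each symbol its level in 1 library in CPM on a log axis, with open symbols left of the dotted line for genes at 0 counts. The lungs (triangles) lie left of the primary sites (circles) for nearly every member. Pcna and Stmn1 are the closest, and late lung lies right of the primary tumor for Stmn1. The primary tumor lies right of the early lesion for 10 members, among them Pbk and Ccne2.

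Genes of both programs outside the 39 were read from lists of 32 other S phase and 44 other mitosis genes. In the primary tumor against the early lesion, 17 of 41 measured other mitosis genes were lower and 1 higher (Aspm, a spindle pole protein, with 17 and 22 UMIs), beside 6.68% and 24.5% of all genes, with a median log2 ratio of -0.88. The lower ones included Lmnb1, a nuclear lamin (347 and 50 UMIs, log2 ratio -1.68), and Kif23, a midzone motor (100 and 14 UMIs, log2 ratio -1.69). Ckap2l and Kif22, a spindle protein and a chromosome motor, had log2 ratios of -1.56 and -1.61. Of 30 measured other S phase genes 3 were lower (Chaf1a, Chek1 and Pold1) and 0 higher, with a median of -0.13. Without the deep cells 14 of 40 other mitosis genes and 0 of 28 other S phase genes were lower, beside 9.35% of all genes.

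In the lungs most members were at or near 0. Early lung held 17 S phase UMIs (83.5 CPM) and 6 mitosis UMIs (29.5 CPM) over 185 cells, log2 ratios to the early lesion of -2.73 (-3.55 to -2.09) and -5.88 (-7.44 to -4.87). There 26 of the 39 members were at 0, beside 17484 of all 27998 genes counted. By the same rule 32 of 38 measured members were lower than in the early lesion, beside 11.9% of all genes, and 0 were higher, beside 22.1%. Apart from Stmn1, the measured members reached the minimum of 20 counts only through the early lesion, which leans the rule toward calls of lower. For 4 of the 32 that were at 0, the floor of 3 counts allows a difference under 2-fold. With 5 counts added to each sum, 15 members were lower, beside 4.73% of all genes. In cells of 1000 to 5000 UMIs 19 of 37 were lower, beside 9.49%. Ube2c, at 0 in early lung, was at least 22.1-fold lower than in the early lesion by that floor per library, Birc5 at least 11.7-fold and Cdk1 at least 8.49-fold. The median log2 ratio was -3.29 for S phase and -3.99 for mitosis genes, or -2.04 and -2.13 with genes at 0 set to that floor. Free RNA in early lung held 120 CPM of mitosis UMIs, above the 29.5 CPM of its cells.

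Late lung held 56 S phase UMIs (136 CPM) and 40 mitosis UMIs (97.1 CPM) over 210 cells, log2 ratios to the primary tumor of -1.75 (-2.18 to -1.37) and -3.46 (-3.96 to -3.02). There 16 of the 39 members were at 0, beside 15413 of all 27998 genes counted. Of 36 measured members 31 were lower than in the primary tumor, beside 17.4% of all genes, and 0 were higher, beside 20.6%. Apart from Pcna, Hmgb2 and Stmn1, the measured members reached the minimum of 20 counts only through the primary tumor. This leans the rule toward calls of lower. For 3 of the 31, all at 0, the floor allows a difference under 2-fold. All 22 measured mitosis genes and 7 of 11 S phase genes were lower. Pcna, Mcm3, Mcm4 and Mcm7 did not pass, nor did Stmn1 (log2 ratio 0.10, -0.12 to 0.31). A single late lung cell of 1640 UMIs gave 17 of the 40 mitosis UMIs, among them 5 of Ube2c and 3 of Cenpa. It also held 9 of Hmgb2, 15 of Sparc, a matrix protein, and 6 each of Higd1b and Ndufa4l2. That cell had 0 UMIs of the endothelial, alveolar, mammary, leukocyte, and pericyte and smooth muscle lists, 5 of the airway list and 1 of the fibroblast list. The type of that cell was not assigned. Without it late lung had 56.0 CPM of mitosis UMIs and a log2 ratio to the primary tumor of -4.24. Another late lung cell, of 6123 UMIs, had 8 S phase UMIs and 92 UMIs of the leukocyte list.

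Between the lungs, the S phase sum had a late to early log2 ratio of 0.67 (-0.10 to 1.58) and the mitosis sum one of 1.62 (0.47 to 3.25). Only Pcna, Hmgb2 and Stmn1 reached 20 counts, with log2 ratios of 0.62, 0.75 and 0.71. None of the 3 was called higher or lower, beside 8.70% and 3.45% of all genes. Without the single late lung cell with 17 mitosis UMIs, the mitosis ratio was 0.84 (-0.41 to 2.51), and its interval includes 0.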

How the data were processed

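The deposited files hold UMI counts per gene and barcode that the authors made, with all 737280 barcodes of the kit and no normalization. Per the submitters' processing notes, reads were set on mm10. Which aligner and counter made them is not given in the sources used here. Positions of genes are from GENCODE M21 and promoters from RefSeq, both of the same build.

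Each library was read in Python 3.11.15 (numpy 2.4.6, scipy 1.17.1). Counts were summed over cells and scaled to CPM. Ratios are log2 after adding 0.5 counts to each sum, with an exact conditional binomial 95% interval, and shares have exact binomial intervals. UMIs are not known to be independent between cells of a library, so intervals cover counting error only. With 1 library per group there was no test. Zeros have a floor of 3 counts. The ratio call and the thinning were checked on simulated data. The check of the ratio call drew independent counts on summed totals, so it does not cover UMIs clustered in a few deep cells. Doublets were kept and removed in an alternative, where Scrublet (scanpy 1.11.5) marked 4, 2, 0 and 0 barcodes in early lesion, primary tumor, early lung and late lung, under 0.5% of cells.

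All 39 members are reported, and of the other S phase and mitosis lists up to 4 genes per direction, ranked by the end of the interval closest to no difference. The members and lists were chosen with earlier results of these data known, and the role groups after their counts were seen. Alternatives changed cell minimums, depth, cut, scaling, added counts and members.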

Additional observations from a re-analysis of the deposited data

Results flagged for a closer look

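In point estimates, the late to early contrast differed in direction between the primary site and the lungs for both lists. The difference itself was not tested, since each group is 1 library. The S phase sum had a log2 ratio of -0.305 for the primary tumor against the early lesion and of 0.674 for late lung against early lung, where the interval includes 0. The mitosis sum had log2 ratios of -0.803 and 1.623, and the latter was 0.843 (-0.409 to 2.51) without the late lung cell with most mitosis UMIs. The lung values rest on 17 and 56 S phase UMIs and on 6 and 40 mitosis UMIs, and 17 of the 40 came from 1 late lung cell.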

How the results depend on the processing

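Of 348 values recomputed under an alternative, 285 were counted as the same and 63 as moved. The 285 do not measure stability, since some of them could not move. The raised UMI minimum kept the same thinned cells, so the shares of cells were identical. In each lung 0 barcodes were marked as doublets, so removing doublets left lung shares and balances unchanged. Wide intervals also hid shifts. The early lung balance went from 73.91% (51.59 to 89.77%) to 57.14% without the member with most counts and was counted as the same. Shares of cells, phase balances and counts of called members cannot be negative. Only the log2 ratios of sums and the median log2 ratios could change sign. A change of sign was flagged for medians, and for sums at least 2-fold apart with an interval that excluded 1, and 0 were flagged. Sums less than 2-fold apart, such as those of the primary tumor against the early lesion, were not covered by that flag. No paired analysis was possible because each group is 1 library. For the same reason no replicate could be left out. Low depth limits the lung values, and the cause of each shift was not tested.

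Thinned to 500 UMIs, the S phase shares were 4.401% in the early lesion and 3.917% for the primary tumor, and the mitosis shares 21.24% and 9.908%. At 2000 UMIs they were 25.75% and 23.03%, and 36.31% and 20.79%, with a late lung mitosis share of 0%. With at least 1 UMI, S phase shares were 32.47%, 20.83%, 9.091% and 7.595% in early lesion, primary tumor, early lung and late lung, and mitosis shares 43.13% and 23.72% at the primary sites. With at least 3 UMIs, S phase shares were 5.764% and 5.449%, and the early lesion mitosis share 23.15%. The late lung S phase share was 0% with at least 3 UMIs, in a second random draw, without the member with most counts, and in cells of 1000 to 5000 UMIs.

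The phase balance of the primary tumor was 24.65% without cells over 10000 UMIs, 21.7% on thinned counts, 22.27% in cells of 1000 to 5000 UMIs, 27.94% without the member with most counts and 48.37% with cells weighted equally. That of the early lesion was 24.12% and 38.54% under the last pair of settings. That of late lung was 46.55% without the member with most counts, 35% on thinned counts and 33.33% in cells of 1000 to 5000 UMIs.

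The summed mitosis log2 ratio of primary tumor to early lesion was -0.306 without cells over 10000 UMIs, -0.6908 without Ube2c, -0.5161 with cells weighted equally, -0.9084 scaled without the 10 top genes and -0.0871 in cells of 1000 to 5000 UMIs, where the S phase ratio was -0.1697 and the mitosis median -0.2046. Members called lower there numbered 6 without cells over 10000 UMIs and 2 in cells of 1000 to 5000 UMIs, and 1 was called higher at a minimum of 50 counts.

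For early lung against early lesion, the S phase and mitosis medians were -2.608 and -3.205 at a minimum of 1000 UMIs, -0.4552 and -0.9669 with 5 counts added, and -2.456 and -2.771 in cells of 1000 to 5000 UMIs. Members called lower numbered 15 with 5 counts added and 19 in cells of 1000 to 5000 UMIs. The S phase sum was -3.567 without the member with most counts. For late lung against primary tumor, the S phase median was -3.625 without cells over 10000 UMIs and -3.407 at a minimum of 50 counts. The S phase and mitosis medians were -0.5303 and -1.564 with 5 counts added, and -2.959 and -2.824 in cells of 1000 to 5000 UMIs. The S phase sum was -2.486 without the member with most counts and -2.229 in cells of 1000 to 5000 UMIs, and the mitosis sum -4.235 without the late lung cell with most mitosis UMIs. Between the lungs, 1 member was called higher at a minimum of 1000 UMIs, without cells over 10000 UMIs or at a minimum of 5 counts. The range of 1000 to 5000 UMIs and the left-out late lung cell were chosen after seeing the data.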

Other observations

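Cells that passed for S phase or mitosis were set beside the other cells of their library in a few gene lists, read after thinning to 1000 UMIs, with the thinned cells of a library as the only source. Cytosolic ribosomal protein genes summed to 37201 CPM in early lesion cells that passed for either list and to 41982 CPM in those that passed for neither, and to 30646 and 39368 CPM in the primary tumor. Immediate early genes, which answer to stress and digestion as well as to growth signals, were at 1912 CPM (1772 to 2059) in early lesion cells of either list and 2617 CPM (2496 to 2741) in cells of neither. By class they were at 1519 CPM (1366 to 1684) in mitosis-only cells, 2441 CPM (2059 to 2873) in S-phase-only cells and 2836 CPM (2447 to 3268) in cells of both lists. In the primary tumor they were low throughout, at 154 CPM (73.8 to 283) in cells of either list and 308 CPM (242 to 385) in the rest, where the intervals overlap and the first rests on 10 UMIs. Glycolysis genes were at 7723 CPM (7064 to 8426) in primary tumor cells of either list and 10919 CPM (10513 to 11337) in the rest, and in the early lesion at 2763 and 2951 CPM, where the intervals overlap. Milk protein genes were lower in early lesion cells of either list, at 145683 CPM (144537 to 146835) against 155755 CPM (154893 to 156621) in the rest. In the primary tumor they were higher in cells of either list, at 83600 CPM (81483 to 85754) against 69089 CPM (68092 to 70096) in the rest. These genes are also prominent in free RNA, and its part in these levels was not tested.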
